A study of Rattus norvegicus with 12 samples.

Results

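Spp1 and Cd44 encode osteopontin and one of its receptors, and both were measured by RNA sequencing in livers of male Wistar rats. They are 2 of the 34194 gene IDs in the deposited table, picked by ID (ENSRNOG00000043451 for Spp1 and ENSRNOG00000006094 for Cd44) with their values already known. Their levels are therefore given as a description, without a test. The rats were randomized into 4 groups of 12, and 3 liver samples per group were sequenced at week 20 as 12 libraries. The study's methods speak of biological replicates, while how the samples were picked and whether those of a group came from separate rats is not stated in the sources used here. Each is called a liver below. Control rats were injected with saline and drank water. NDEA rats received 25 mg/kg of N-nitrosodiethylamine (NDEA), a carcinogen that induces liver tumors, given intraperitoneally 2 times weekly in weeks 2 to 9, with plain water to drink. NDEA+CFT-1 and NDEA+FYT rats received the same injections and drank green tea infusion for the 20 weeks, made from the variety CFT-1, rich in epigallocatechin-3-gallate (EGCG), or from the common variety Fuyun6 (FYT). All 3 groups other than Control thus received the carcinogen, and no group drank tea without it. The labels call the tissue liver and do not say whether a sample held nodule or surrounding tissue.

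Osteopontin is a secreted, acidic phosphoprotein of the SIBLING family that binds integrins through an RGD motif and also binds CD44. In normal liver it is known mainly from bile duct epithelium, and in injured or tumor-bearing liver also from macrophages, activated stellate cells and tumor cells. CD44 is a transmembrane glycoprotein whose main ligand is hyaluronan. It is scarce on normal hepatocytes and known from leukocytes, progenitor-like cells and tumor cells. These libraries are from whole tissue, so fewer cells of a type and less RNA per cell cannot be told apart.

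The proximal promoters of both genes are shown because the genes varied together over the livers, as described further on. Each is the stretch of 250 bases upstream of the start site in RefSeq, on the GRCr8 build, printed 5′ to 3′ with matches to the motifs searched in capitals. The Spp1 stretch lies at chr14:5619805-5620054 and the Cd44 stretch at chr3:109699425-109699674, both on the minus strand.
Spp1: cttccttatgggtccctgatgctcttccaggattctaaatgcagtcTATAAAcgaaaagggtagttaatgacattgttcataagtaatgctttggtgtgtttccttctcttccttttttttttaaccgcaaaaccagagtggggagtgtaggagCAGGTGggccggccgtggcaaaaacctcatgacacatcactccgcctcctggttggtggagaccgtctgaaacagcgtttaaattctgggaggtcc
Cd44: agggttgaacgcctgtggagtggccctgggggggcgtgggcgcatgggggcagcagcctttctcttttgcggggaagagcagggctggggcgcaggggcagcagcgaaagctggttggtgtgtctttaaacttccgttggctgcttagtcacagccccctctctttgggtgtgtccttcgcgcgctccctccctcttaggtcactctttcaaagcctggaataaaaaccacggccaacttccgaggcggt
The motifs were searched on both strands, as AP-1 (TGANTCA), the TATA box (TATAAA), the CCAAT box (CCAAT), the GC box (GGGCGG), Runx (TGTGGT), Ets (CCGGAA), the E-box (CANNTG) and the core of the cAMP response element (TGACG). The Spp1 stretch holds 1 TATAAA, whose first base is 204 bases before the start site, and 1 E-box, 96 bases before it. Among 27457 rat promoters of this length, 13.1% hold TATAAA and 65.2% hold an E-box. The Cd44 stretch holds 0 matches to these letters, so no motif of the search was common to both. The motifs found in neither stretch are held by 6.36% (AP-1) to 34.3% (CCAAT box) of these promoters, so their absence is usual. Whether the genes share regulation was not tested. GC bases make up 46.8% of the Spp1 stretch and 60.8% of the Cd44 stretch, beside a median of 52% over all promoters.

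The deposited unit is FPKM, fragments scaled by transcript length and by the size of the library, which allows levels of different genes to be compared per length. Low FPKM values move in steps of 1 fragment, from which relative depths were read, between 1 for the shallowest library (NDEA replicate 1) and 1.66 for the deepest (NDEA+CFT-1 replicate 1). With these depths the FPKM values of a gene convert to the smallest set of whole fragments with the same proportions. This worked for all 6878 genes checked, within 0.001 of a fragment. The true counts of a gene could be a common multiple of these, and the intervals would then be narrower than given here. By this count 1641 fragments of Spp1 and 1622 of Cd44 stood behind the 12 libraries together. A single library held from 16 to 518 fragments of Spp1 (median 96) and from 37 to 592 of Cd44 (median 107). Exact 95% Poisson intervals from these fragments are given where the precision matters, and they cover counting error only. The size of 1 fragment also gave Cd44 a counted length of 1.56 times that of Spp1. The libraries differed as a whole, so each level is also given after median-of-ratios scaling, which divides a library by its median ratio to the mean of all. The divisors were 0.771 to 1.12 in 11 libraries and 1.40 in NDEA replicate 1. That library had the highest FPKM of the 12 for 49.4% of the 11854 genes tested, those whose FPKM averaged 1 or more, and for 20.0% of them after scaling. On the scaled values NDEA+CFT-1 replicate 2 was highest for 22.2% of these genes and Control replicate 3 for 17.9%.

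Spp1 was low in the Control livers, with FPKM of 2.00, 2.52 and 0.808 in replicates 1, 2 and 3. In the NDEA livers the values were 23.0, 0.800 and 4.27. Replicate 1 was thus the highest of all 12 libraries and replicate 2 the second lowest, so the NDEA group contained the whole range of Control. The NDEA+FYT livers had 4.57, 8.01 and 3.45 FPKM, all higher than the Control libraries, although the intervals of replicate 3 (2.87 to 4.11) and Control replicate 2 (1.96 to 3.19) overlapped. The NDEA+CFT-1 livers had 0.428, 0.943 and 9.71 FPKM. Their replicate 1 was the lowest and their replicate 3 the second highest of the 12, so this group lay on both sides of every Control value. Within these 2 groups the spans were wider than counting error, with intervals of 0.245 to 0.696 FPKM for NDEA+CFT-1 replicate 1 and 8.62 to 10.9 for replicate 3. In NDEA the interval was 0.513 to 1.19 FPKM for replicate 2 and 21.1 to 25.1 for replicate 1. At the low end, as deposited, the intervals of NDEA+CFT-1 replicate 1 and NDEA replicate 2 both overlapped that of Control replicate 3 (0.541 to 1.16). This overlap is not a test of a difference, and it was not examined on the scaled values. After scaling the levels were 0.428 in NDEA+CFT-1 replicate 1, 0.817 in NDEA replicate 2 and 1.05 in Control replicate 3.

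**Figure D1:**
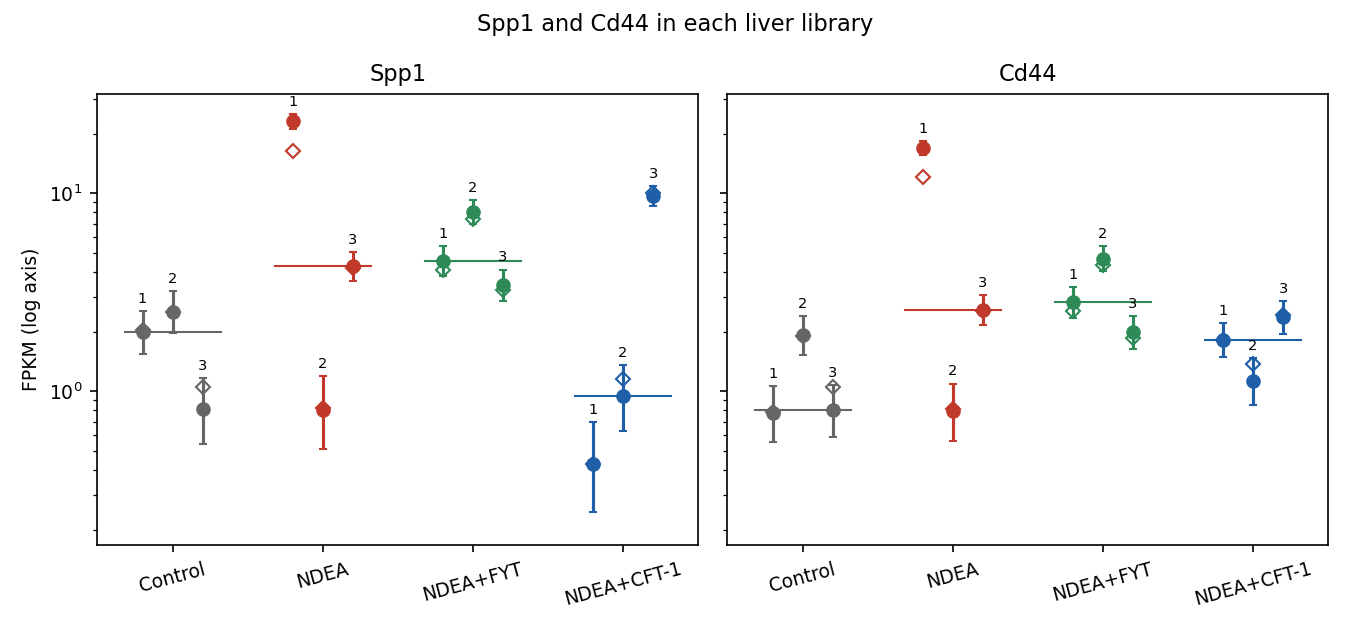
FPKM of Spp1 (left) and Cd44 (right) in each library on a log axis, with replicate numbers, as deposited (filled points, bars for exact 95% Poisson intervals) and after median-of-ratios scaling (open diamonds), and a line at each group's median. NDEA replicate 1 is the highest library for both genes, and for Spp1 the NDEA+CFT-1 libraries run from 0.428 to 9.71.

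Cd44 was lower than Spp1 on average, with a mean over the 12 libraries of 3.21 FPKM against 5.04, and had the same highest library. The Control livers had 0.777, 1.92 and 0.805 FPKM of Cd44 in replicates 1, 2 and 3. The NDEA livers had 16.9, 0.791 and 2.58 FPKM, again with replicate 1 above all libraries and replicate 2 within the range of Control. In NDEA+FYT the values were 2.82, 4.67 and 1.98 FPKM, all above Control, although the intervals of replicate 3 (1.63 to 2.39) and Control replicate 2 (1.53 to 2.39) overlapped. The NDEA+CFT-1 livers had 1.82, 1.13 and 2.36 FPKM. Here replicate 1, the lowest library for Spp1, was the 8th highest for Cd44, and replicate 3, the second highest for Spp1, was the 5th.

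The order of the groups depended on how they were averaged. For Spp1 the mean ± SD was 9.36 ± 12.0 FPKM in NDEA, 5.34 ± 2.38 in NDEA+FYT, 3.70 ± 5.22 in NDEA+CFT-1 and 1.78 ± 0.879 in Control (n = 3 each). By the median the order was NDEA+FYT (4.57), NDEA (4.27), Control (2.00) and NDEA+CFT-1 (0.943). For Cd44 the mean ± SD was 6.75 ± 8.82 FPKM in NDEA, 3.16 ± 1.37 in NDEA+FYT, 1.77 ± 0.618 in NDEA+CFT-1 and 1.17 ± 0.654 in Control (n = 3 each). The medians of Cd44 ran from 2.82 in NDEA+FYT and 2.58 in NDEA to 1.82 in NDEA+CFT-1 and 0.805 in Control. Neighbours in each of these orders had overlapping libraries.
After scaling, the mean ± SD of Spp1 was 7.14 ± 8.20 in NDEA, 4.92 ± 2.20 in NDEA+FYT, 3.85 ± 5.32 in NDEA+CFT-1 and 1.86 ± 0.741 in Control. For Cd44 it was 5.12 ± 6.04, 2.90 ± 1.27, 1.87 ± 0.526 and 1.25 ± 0.586 in the same order of groups. Scaling left the order of the means as it was for both genes, but turned that of the 2 highest medians, which were 4.19 in NDEA and 4.09 in NDEA+FYT for Spp1, and 2.54 and 2.52 for Cd44.

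Both genes varied more between livers than most genes did. The highest library was 53.7 times the lowest for Spp1 and 21.7 times for Cd44, and 38.3 and 15.2 times after scaling. On log2(FPKM + 1) the SD over the 12 libraries was 1.23 for Spp1, above that of 99.4% of the genes tested, and 0.93 for Cd44, above that of 98.0%, beside a median gene at 0.31. Both genes had their largest spread within NDEA, and they differed in NDEA+CFT-1. Within NDEA the SD was 1.88 for Spp1 and 1.70 for Cd44, larger than for 99.4% and 99.0% of the genes tested. Within NDEA+CFT-1 it was 1.57 for Spp1, larger than for 99.7% of genes, but 0.33 for Cd44, larger than for 67.0%. The NDEA+FYT livers had SDs of 0.52 and 0.47, larger than for 94.7% and 93.3% of genes, beside a median gene at 0.15 in that group. The Control livers had 0.50 and 0.41, larger than for 85.7% and 77.2%. Since the genes were picked with these values known, the percentages only place them among the genes tested.

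The question of the model group was whether the carcinogen alone moved the genes. On log2(FPKM + 1) the NDEA mean minus the Control mean was 1.19 ± 1.12 (SE) for Spp1 and 1.20 ± 1.01 for Cd44, each close in size to its own error, and the groups overlapped for both genes, whereas 10.8% of the genes tested were higher in NDEA without overlap as deposited and 5.11% after scaling. The median difference over all genes tested was 0.20 in this comparison. After scaling, the differences were 0.97 ± 0.97 for Spp1 and 0.99 ± 0.86 for Cd44, with a median of -0.04 over all genes. One liver carried most of this. Without NDEA replicate 1 the difference as deposited was 0.20 for Spp1 and 0.26 for Cd44, and without NDEA replicate 2 it was 2.07 and 1.92. Of the genes tested with limma and Benjamini-Hochberg adjustment, 0% had an adjusted p-value under 0.05 in this comparison and 8.7% (1031 genes) an unadjusted one. The latter were 900 higher and 131 lower in NDEA, but 449 higher and 515 lower after scaling. They numbered 372 without NDEA replicate 1, 407 without Control replicate 3 and 2293 without NDEA replicate 2.

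**Figure D2:**
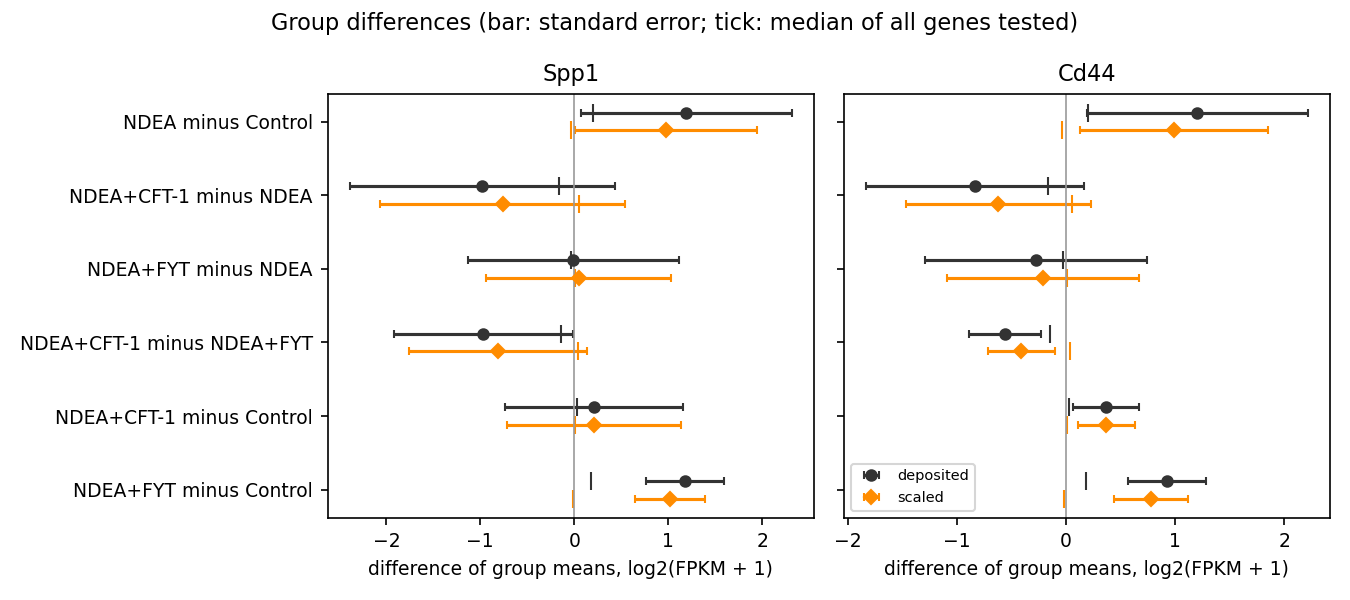
Difference of group means on log2(FPKM + 1) for Spp1 (left) and Cd44 (right) in each comparison, as deposited and after median-of-ratios scaling, with bars of 1 standard error and short ticks at the median difference of all genes tested. NDEA+FYT minus Control is at 1.18 for Spp1 and 0.93 for Cd44 as deposited, and the bars are longest in the comparisons with the NDEA group.

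The tea groups were compared with NDEA to ask whether the infusions altered the livers under the carcinogen. NDEA+CFT-1 minus NDEA was -0.98 ± 1.41 for Spp1 and -0.84 ± 1.00 for Cd44, and -0.76 ± 1.30 and -0.62 ± 0.85 after scaling. The libraries overlapped for both genes, whereas 14.1% of the genes tested were lower in NDEA+CFT-1 without overlap as deposited and 8.91% after scaling. Without NDEA replicate 1 the values as deposited were 0.0082 and 0.10, of the opposite sign. Without NDEA replicate 2 they were -1.86 and -1.56. For Spp1 the NDEA+CFT-1 libraries also decided the size, with -1.87 without replicate 3, -0.42 without replicate 1 and -0.64 without replicate 2. NDEA+FYT minus NDEA was -0.01 ± 1.13 for Spp1 and -0.28 ± 1.02 for Cd44, and 0.05 ± 0.99 and -0.21 ± 0.88 after scaling, with overlap on both scales. In this comparison 2.03% of the genes tested were lower in NDEA+FYT without overlap as deposited and 3.03% after scaling. The differences as deposited became 0.98 and 0.66 without NDEA replicate 1 and -0.89 and -0.997 without NDEA replicate 2. Both comparisons, and that of NDEA with Control, use the same 3 NDEA libraries, so they move together when one of these is left out. An adjusted p-value under 0.05 in limma was reached by 0% of the genes tested with either tea, and an unadjusted one by 12.6% with CFT-1 and 1.48% with FYT. With CFT-1 these were 209 genes higher and 1285 lower than in NDEA, but 974 higher and 813 lower after scaling.

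Between the teas, NDEA+CFT-1 minus NDEA+FYT was -0.97 ± 0.95 for Spp1 and -0.56 ± 0.33 for Cd44, beside a median of -0.14 over all genes. After scaling it was -0.81 ± 0.95 and -0.41 ± 0.30, beside a median of 0.04. For Spp1 as deposited it was -1.52 by group medians and -1.54 with a pseudocount of 0.1. The libraries of the 2 groups overlapped for both genes, whereas 18.9% of the genes tested were lower in NDEA+CFT-1 without overlap as deposited and 8.3% after scaling. For Spp1 the NDEA+FYT livers lay between the NDEA+CFT-1 livers, above replicates 1 and 2 and below replicate 3. Without NDEA+CFT-1 replicate 3 the difference for Spp1 was -1.86, and it was -0.41 without replicate 1 and -0.63 without replicate 2. For Cd44 it was -0.31 without NDEA+FYT replicate 2 and -0.77 without NDEA+FYT replicate 3. In limma 0% of the genes tested had an adjusted p-value under 0.05 between the teas and 5.42% an unadjusted one, with 21 genes higher and 621 lower in NDEA+CFT-1, but 333 higher and 391 lower after scaling.

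The tea groups, which also received NDEA, were set beside Control, a comparison added after the values were seen. NDEA+FYT minus Control was 1.18 ± 0.42 for Spp1 and 0.93 ± 0.36 for Cd44, and all 3 NDEA+FYT libraries were above all 3 Control libraries for both genes. That held for 18.8% of the genes tested as deposited. After scaling the differences were 1.02 ± 0.37 and 0.78 ± 0.34, Spp1 still had no overlap, and Cd44 did, with 1.86 in NDEA+FYT replicate 3 and 1.91 in Control replicate 2. NDEA+FYT was above Control without overlap for 5.18% of the genes tested on the scaled values. Leaving out single libraries gave 0.90 to 1.41 for Spp1 and 0.68 to 1.16 for Cd44. NDEA+CFT-1 minus Control was 0.21 ± 0.95 for Spp1, which became -0.68 without NDEA+CFT-1 replicate 3, 0.77 without replicate 1, 0.55 without replicate 2 and -0.07 without Control replicate 3. For Cd44 it was 0.37 ± 0.30, and between 0.22 (without NDEA+CFT-1 replicate 3) and 0.60 (without Control replicate 2). Both genes overlapped here, and 6.07% of the genes tested were higher in NDEA+CFT-1 than in Control without overlap as deposited and 5.2% after scaling. In limma 0% of the genes tested had an adjusted p-value under 0.05 in these 2 comparisons, and 3.8% (FYT) and 3.25% (CFT-1) had an unadjusted one. For FYT these were 407 genes higher and 43 lower than in Control, but 176 higher and 212 lower after scaling.

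The 2 genes were high in much the same livers. Over the 12 libraries Pearson's r on log2(FPKM + 1) was 0.864 and Spearman's rho 0.846, given as a description because the pair was chosen with its values known. Without NDEA replicate 1, the highest library of both genes, r was 0.772. The livers with the lowest and the highest ratio of the genes were NDEA+CFT-1 replicates 1 and 3, and leaving out either one gave r = 0.914 and 0.916, respectively. Leaving out NDEA replicate 1 and NDEA+CFT-1 replicate 1 together, those farthest from the median of Spp1, gave 0.869 over 10 libraries, since the 2 move r in opposite directions. With the group means subtracted, so that only differences between livers of the same group counted, r was 0.833 (rho 0.734), and 0.798 (rho 0.657) after scaling. Scaling gave 0.828 for the levels themselves. The r within groups rests mostly on the NDEA livers, which had the largest spread of both genes (SD 1.88 for Spp1 and 1.70 for Cd44 as deposited). It was not recomputed without single libraries.

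**Figure D3:**
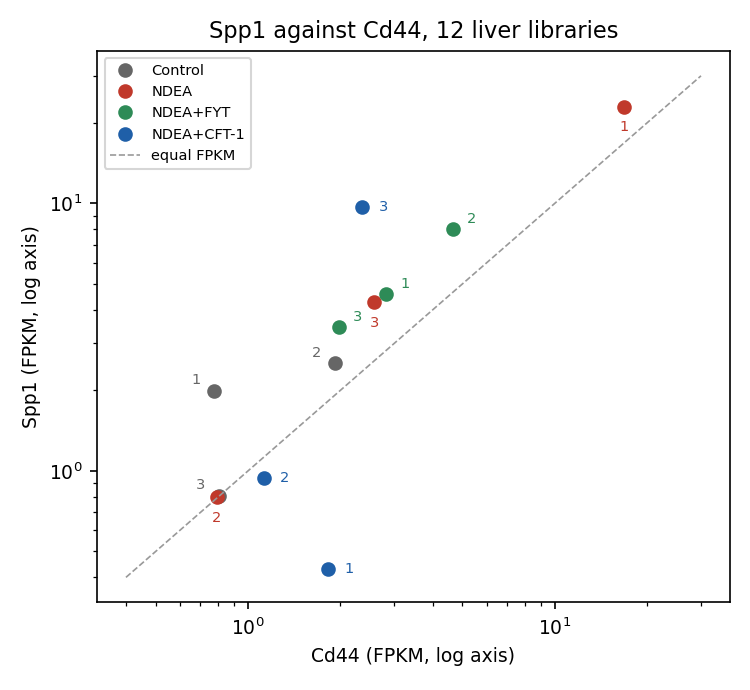
Spp1 against Cd44 in FPKM on log axes, 1 point per library, with replicate numbers in the colour of the group and a dashed line at equal FPKM. Most livers lie just above the line, and the NDEA+CFT-1 livers 1 and 3 lie farthest from it on either side.

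A correlation of this size has to be read beside the other genes, because whole libraries differed. The median r with Spp1 over the 11853 other genes tested was 0.402, and with Cd44 it was 0.466. Among all of them Cd44 was the 40th most like Spp1, so that 0.329% of genes had a higher r. Seen from Cd44, Spp1 was in place 824, with 6.94% of genes above it. An r over 0.9 was found for 421 genes with Cd44 and for 6 with Spp1, for 123 and 2 after scaling, and for 30 and 2 without NDEA replicate 1. After scaling the median r was -0.10 with Spp1 and -0.12 with Cd44, and the places were 30 for Cd44 and 384 for Spp1. Without NDEA replicate 1 they were 74 and 310. As deposited, the ID most like Spp1 was ENSRNOG00000010058 (r = 0.935) and that most like Cd44 was ENSRNOG00000005348 (r = 0.984), and after scaling other IDs took both places. The files do not pair these IDs with symbols.

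**Figure D4:**
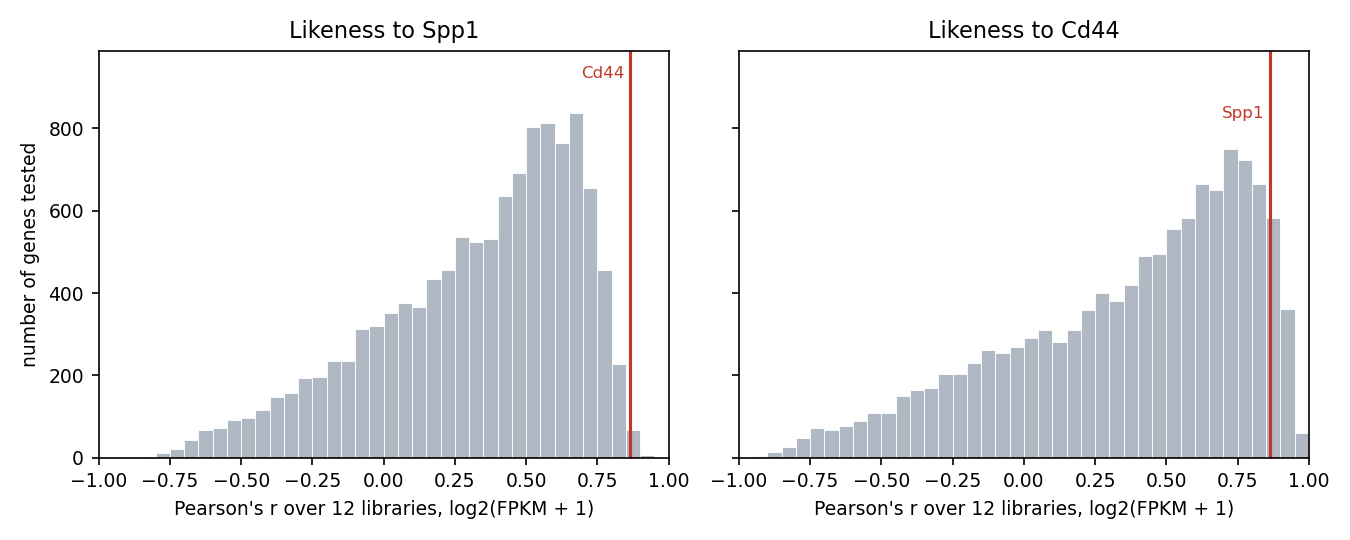
Number of genes tested by their Pearson's r with Spp1 (left) and with Cd44 (right) over the 12 libraries, with a line at the other member. Cd44 stands in the far right tail for Spp1 at r = 0.864, while 6.94% of genes lie to the right of Spp1 for Cd44.

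The ratio of the 2 genes separates the livers in which they parted. Ratios of Spp1 to Cd44 in FPKM are per length and do not change with scaling of a library. In NDEA+FYT the ratio was 1.62, 1.72 and 1.74, with exact 95% intervals that overlapped (1.26 to 2.08, 1.40 to 2.10 and 1.34 to 2.27). In NDEA it was 1.36, 1.01 and 1.65, so the liver with the most Spp1 kept a ratio between those of the other two. In Control it was 2.57, 1.31 and 1.00. In NDEA+CFT-1 it was 0.235, 0.837 and 4.12, a 17.5-fold span beside 1.08-fold in NDEA+FYT, 1.64-fold in NDEA and 2.56-fold in Control. The interval was 0.130 to 0.400 for NDEA+CFT-1 replicate 1, below those of all other libraries, and 3.29 to 5.18 for replicate 3, which met only that of Control replicate 1 (1.71 to 3.91). The SD of the log2 ratio was 2.07 in NDEA+CFT-1, 0.70 in Control, 0.36 in NDEA and 0.06 in NDEA+FYT, and with 3 livers a group this difference in spread was not tested.

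**Figure D5:**
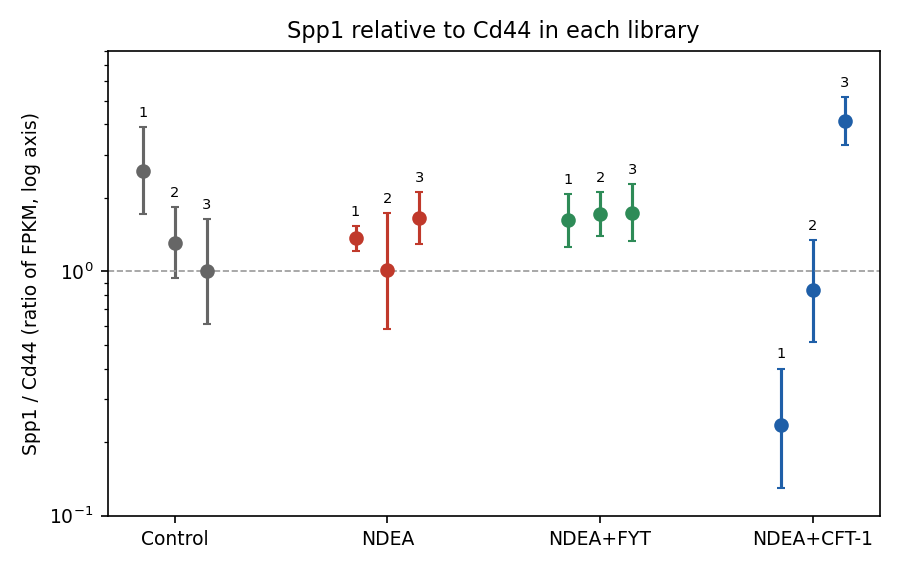
Ratio of Spp1 to Cd44 in FPKM in each library on a log axis, by group, with replicate numbers, bars for exact 95% intervals from the fragment counts and a dashed line at 1. The NDEA+FYT livers sit between 1.62 and 1.74, and the NDEA+CFT-1 livers between 0.235 and 4.12.

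The level of both genes among all transcripts shifted with the liver. In NDEA replicate 1 Spp1 exceeded 73.0% and Cd44 66.0% of the genes tested, and in NDEA replicate 2 they exceeded 3.10% and 3.04%. NDEA replicate 1 was above the median of the other 11 libraries by 2.77 on log2(FPKM + 1) for Spp1 and by 2.61 for Cd44, more than for 99.4% and 99.2% of the genes tested, where the median gene was above by 0.34. After scaling these values were 2.31 and 2.19, beside a median of -0.08. NDEA+CFT-1 replicate 3 was above the other libraries by 1.60 for Spp1 and by 0.20 for Cd44, more than for 99.9% and 79.9% of genes. The other receptors and partners of osteopontin and CD44 (65 symbols in 8 lists, with the integrin subunits among them) and 91 markers of liver, blood and tumor cells were listed for comparison. They are not analysed here, because the files used here paired 0 IDs with a symbol, and the labelled tissue was not checked against its markers for the same reason.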

How the data were processed

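RNA was sequenced from 12 rat livers (4 groups, 3 libraries each), grouped by the sample labels. The deposited values are FPKM. The authors used Trimmomatic for trimming of the paired reads and HISAT2 for alignment, and counted uniquely mapped reads after removal of PCR duplicates. The submitters' processing notes name HTSeq 0.6.1 and the build Rnor_6.0, while the annotation is not given in the sources used here. From the FPKM values log2(FPKM + 1) was computed. The 11854 genes averaging 1 FPKM or more were tested with limma 3.58.1 in R 4.3.3 (all 4 groups in 1 fit, eBayes with trend, Benjamini-Hochberg adjustment), as the background only. P-values set a difference of means against the spread between samples within groups, pooled over the 4 groups and moderated by eBayes. The methods call these samples biological replicates without naming separate rats. The study's DEGSeq models read counts and was not run. Scaling used the median of ratios over 15742 genes above 0 in every library. Relative depth came from ratios of FPKM values under 0.3. Members, lists, motifs and comparisons were chosen with earlier results of these data known. The genes to be named were the members, list genes with the lowest p-values and the most alike genes with a symbol, of which the files allowed the members alone. The most alike IDs were named after their values were seen. Alternatives were scalings, pseudocounts, filters, group medians, a replicate block, library weights (gene-by-gene method) and leaving out each library. The limma fit was tested on simulated data. Figures were drawn with matplotlib 3.10.9. No gene symbols came with the IDs beyond the members, so pathway and marker lists were left out.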

Additional observations from a re-analysis of the deposited data

How the results depend on the processing

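The 12 group differences of Spp1 and Cd44 were recomputed under other scalings, pseudocounts and averages and without single libraries. In the comparisons with the NDEA group, leaving out NDEA replicate 1 moved both genes most, as from 1.19 to 0.20 for Spp1 in NDEA minus Control. With a pseudocount of 0.1, where low values weigh more, Cd44 in NDEA+FYT minus Control was 1.39. Spp1 in NDEA+CFT-1 minus Control was then 0.04. Spp1 in NDEA+CFT-1 minus NDEA+FYT was -1.54 with that pseudocount and -1.52 by group medians, where the main value was -0.97. A single direction was kept under every setting by 7 of the 12 differences. The others were Spp1 in both teas minus NDEA and in NDEA+CFT-1 minus Control, and Cd44 in both teas minus NDEA. By group medians Spp1 in NDEA+CFT-1 minus Control was -0.63, Cd44 in NDEA+FYT minus NDEA 0.09 and Cd44 in NDEA+CFT-1 minus NDEA -0.34. A replicate block left each difference of means as it was by construction (1.19 for Spp1 in NDEA minus Control), and with it limma called 0 genes in all 6 comparisons. The replicate numbers were not taken as pairs, since 7 of 18 same-numbered pairs of libraries had deviations from the group means with r over 0.1 (lowest -0.47). The exception was NDEA+CFT-1 with Control, where all 3 pairs were over 0.1 (0.22 to 0.28), and there the block gave 397 genes at an unadjusted p under 0.05 instead of 385.

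At an adjusted p-value under 0.05 limma called 0 genes in each comparison, beside 1031, 1494, 176, 642, 385 and 450 at an unadjusted p under 0.05 (NDEA minus Control, CFT-1 and FYT minus NDEA, CFT-1 minus FYT, CFT-1 and FYT minus Control). These 6 unadjusted counts moved with single libraries, to 372 to 2293, 997 to 2270, 123 to 567, 298 to 1031, 225 to 697 and 185 to 1067, with NDEA replicate 1 or 2 left out at one end of each range. Fits on the compared pair of groups alone gave 437, 876, 193, 1412, 446 and 1216. With no filter on low values 1 gene was called in each of the 3 comparisons with Control. With library weights 19 genes were called for CFT-1 minus NDEA, 1 for CFT-1 minus FYT and 3 for CFT-1 minus Control. The unadjusted counts with these weights were 1061, 2163, 837, 1809, 1661 and 1591, in the order of comparisons given above. Leaving out one replicate gave 0 to 2 genes for NDEA minus Control (2 without Control replicate 2), and 0 to 1 for FYT minus NDEA, CFT-1 minus FYT, CFT-1 minus Control and FYT minus Control. The cause was not tested. The place of Cd44 among genes most like Spp1 was 74 without NDEA replicate 1, where it was 40 with all libraries. The place of Spp1 for Cd44 was 824, and it was 384 with scaling, 310 without NDEA replicate 1, 204 by Spearman's rho and 159 with scaling and without that library. The calls among the list genes could not be computed, because no list gene was matched. Comparisons with Control for the teas were chosen after seeing the data. The lowest value rests on 16 fragments by the count used here.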
